A study of Mus musculus with 9 samples.

Results

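The genes described here are 35 germline genes, which serve meiosis, the piRNA pathway and other functions of germ cells, and which are known in mice as genes that DNA methylation of their promoters helps to keep off in body cells. They were chosen by name, with no expression value in the rule, but with earlier results on these data known. Of the 35, 32 had a row among the 22631 genes of the authors' deposited table of Mutant against Control, and 20 had a row among the 27775 genes of a second deposited table, of arms abbreviated PT and PUT. All 20 of the second table were also in the first, 12 members had a row in the first only, and 3 (Mael, Rpl10l and Sycp1) had a row in neither. The expression of these 3 was not analysed here, but their promoter windows and transcript sequences are counted below. DNA methylation itself was not measured in these files.

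The study profiled RNA of satellite cells (muscle stem cells) taken from hindlimb muscle of 9-week-old mice and activated in culture. In the Mutant group (3 libraries) the satellite cells were deficient in Uhrf1 after Cre recombination brought on by tamoxifen, of which 150 µl at 20 mg/ml was injected on each of 5 days. In the Control group (3 libraries) the mice received oil. The mice of another 3 libraries, Cre Control, received tamoxifen, and that group was not analysed here as a group of its own. Mutant and Control cells were seeded at 5000 cells/cm2 and grown for 3 days before RNA was taken. The labels name neither the Cre driver nor the Uhrf1 allele, and they leave unsaid whether each library is 1 animal, so the authors' p-values measure only the spread between libraries, which may be technical. Because Mutant mice had tamoxifen and Control mice oil, the drug and the loss of Uhrf1 cannot be told apart.

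Uhrf1 recognises DNA that carries methyl groups on the old strand only, just after replication, and brings the methyltransferase Dnmt1 to copy them. Germline promoters of this kind are rich in CpG yet methylated in body cells. They are also held off by a Polycomb complex, PRC1.6, in which E2f6 and the pair Mga and Max read short DNA motifs. In the germ line these genes build the synaptonemal complex, cut and repair DNA in meiosis, and use piRNAs to silence transposons.

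For genes the authors' group means and tests were used, and no gene value was assigned to a labelled library. Neither the spread between libraries nor the depth per library is therefore shown. A further 6 columns of per-sample values were mapped to no labelled library and were not used here. In the authors' deposited table of Mutant against Control, Uhrf1 had a mean of 20.4 TPM in Mutant and 118 TPM in Control (estimate -3.12, SE 0.60, adjusted p = 4.01e-06). Here and throughout, the estimate (test estimate) is the log2 difference of Mutant over Control behind the authors' test, SE is its standard error, and a gene is called higher or lower where the authors' adjusted p over all genes was below 0.05. The cells carried muscle markers: in the authors' deposited table Myod1 had 914 TPM in Mutant and 1018 TPM in Control, and Des 892 TPM in Mutant and 763 TPM in Control. Germ cell markers outside the members (Prm1, Prm2, Acrv1 and Ldhc, of 6 looked for) summed to 1.59 TPM in Mutant and 1.44 TPM in Control in the authors' deposited table, and 0 of the 4 were called.

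One library went against its label. IAPEz-int, the internal part of a retrotransposon family that DNA methylation silences, took 9.29%, 11.1% and 16.3% of repeat counts in the 3 Mutant libraries. It took 0.501% and 0.675% in Control 1 and Control 2, and 13.1% in the library labelled Control 3, inside the range of the Mutant libraries. Repeat counts were 1794698 to 2245124 per library, and 95% Wilson intervals, which cover counting error only, were no wider than 16.2% to 16.3%. In the authors' deposited repeat table, the mean level of each of 1093 subfamilies equalled the mean computed without the library labelled Control 3, within 0.1% for 100% of them. For genes the picture differed. The decimals of the deposited gene means fit averages of 3 libraries: 3 times the Control mean came out whole at the fifth decimal, within 0.02 of its last unit, for 82.7% of genes with 1 to 10 TPM, and 2 times the mean for 26.7%. With 3 Control libraries in the labels, the Control gene means would then hold the library labelled Control 3. The mean TPM of each member below would thus include it, and no mean without it was computed. Which libraries the authors' gene test used is not known. The estimates, SEs and adjusted p below may therefore be with or without the library labelled Control 3.

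**Figure D1:**
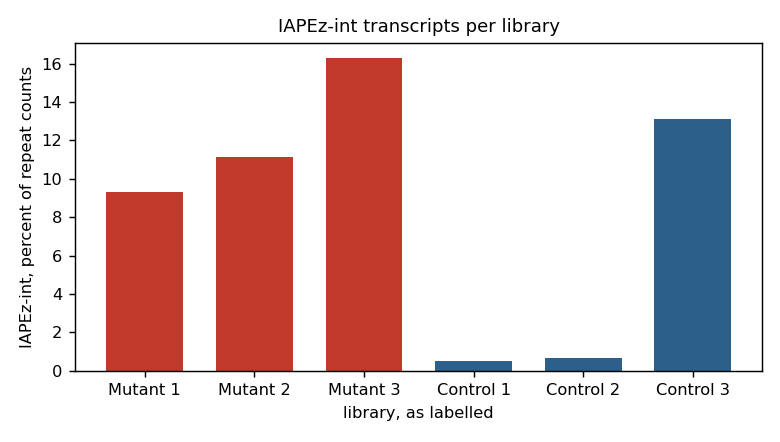
Share of repeat counts taken by IAPEz-int in each library, in percent, with the 3 Mutant libraries at the left and the 3 Control libraries at the right. The library labelled Control 3 stands at 13.1%, between Mutant 2 (11.1%) and Mutant 3 (16.3%), while Control 1 and Control 2 stand at 0.501% and 0.675%.

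Many promoters of the members had features that the choice by name did not use directly. Genes of this kind are known for CpG-rich promoters and for PRC1.6, so the features are tied to the choice. RefSeq (GRCm38.p6) promoter windows, which run from 250 bases before to 50 bases after a start site, were found for 29 of the 35 members, 35 windows in all. Printed here are the windows of Hormad1 and Xlr3a, which were called higher in both gene tables, of Tex13b and Sycp3, which were called higher in the second, of the germ cell regulator Dazl, which was near 0, and of Hsf2bp, which was lower in Mutant. Capitals mark each CpG, the dinucleotide that carries the methyl groups. Hormad1 lies on the plus strand at chr3:95559427-95559726, Tex13b on the minus strand at chrX:140813384-140813683, Sycp3 on the plus strand at chr10:88459337-88459636, Xlr3a on the minus strand at chrX:73097046-73097345, Dazl on the minus strand at chr17:50293571-50293870 and Hsf2bp on the minus strand at chr17:32034459-32034758.
Hormad1: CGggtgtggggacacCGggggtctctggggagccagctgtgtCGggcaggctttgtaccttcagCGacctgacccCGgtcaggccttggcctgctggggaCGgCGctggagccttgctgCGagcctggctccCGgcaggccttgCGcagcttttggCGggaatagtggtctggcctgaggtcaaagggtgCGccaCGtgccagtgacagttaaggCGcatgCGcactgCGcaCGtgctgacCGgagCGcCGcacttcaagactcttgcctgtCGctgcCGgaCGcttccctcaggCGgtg
Tex13b: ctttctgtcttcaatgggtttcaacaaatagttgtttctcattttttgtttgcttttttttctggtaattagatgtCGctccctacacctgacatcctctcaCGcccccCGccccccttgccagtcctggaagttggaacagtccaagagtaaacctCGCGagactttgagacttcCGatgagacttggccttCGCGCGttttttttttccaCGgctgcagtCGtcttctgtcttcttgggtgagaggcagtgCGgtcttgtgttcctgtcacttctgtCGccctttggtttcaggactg
Sycp3: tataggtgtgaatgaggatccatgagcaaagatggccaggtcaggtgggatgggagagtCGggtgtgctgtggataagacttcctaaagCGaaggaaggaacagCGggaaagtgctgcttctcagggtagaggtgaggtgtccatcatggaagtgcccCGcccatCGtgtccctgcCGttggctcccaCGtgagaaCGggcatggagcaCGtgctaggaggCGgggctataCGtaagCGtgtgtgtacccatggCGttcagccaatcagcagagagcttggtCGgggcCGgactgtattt
Xlr3a: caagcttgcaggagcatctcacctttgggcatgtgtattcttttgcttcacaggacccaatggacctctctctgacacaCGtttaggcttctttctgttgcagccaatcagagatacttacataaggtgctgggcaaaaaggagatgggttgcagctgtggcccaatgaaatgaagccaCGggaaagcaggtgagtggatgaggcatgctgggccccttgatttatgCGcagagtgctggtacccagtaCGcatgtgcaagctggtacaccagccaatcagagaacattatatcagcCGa
Dazl: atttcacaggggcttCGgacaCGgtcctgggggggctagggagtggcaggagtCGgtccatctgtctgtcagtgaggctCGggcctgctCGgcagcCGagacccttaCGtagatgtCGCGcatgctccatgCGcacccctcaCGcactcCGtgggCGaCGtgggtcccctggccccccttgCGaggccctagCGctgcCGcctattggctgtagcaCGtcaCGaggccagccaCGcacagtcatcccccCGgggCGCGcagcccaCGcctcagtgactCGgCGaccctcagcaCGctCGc
Hsf2bp: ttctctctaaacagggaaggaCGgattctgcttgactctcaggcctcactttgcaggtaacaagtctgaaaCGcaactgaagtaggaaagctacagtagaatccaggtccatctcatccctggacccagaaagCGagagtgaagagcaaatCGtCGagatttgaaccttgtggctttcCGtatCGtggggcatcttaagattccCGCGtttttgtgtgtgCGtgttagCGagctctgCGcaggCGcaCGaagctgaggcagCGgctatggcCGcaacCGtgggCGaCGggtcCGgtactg

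The windows held 24 CpG in Hormad1, 13 in Tex13b, 15 in Sycp3, 5 in Xlr3a, 28 in Dazl and 20 in Hsf2bp. Over the 29 members, taking the window with the most CpG, the number ran from 5 (Xlr3a) to 38 (Ddx4) with a median of 20. The median over 21262 windows of protein-coding genes was 13, and over all 32851 windows it was 7. Xlr3a was the one member under 10 CpG, so its window is unlike the others in this respect.

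The E-box CACGTG, which reads the same on both strands and is the motif bound by Max and its partners, stood in 18 of the 35 member windows (51.4%). It stood in 7.84% of protein-coding windows, and in 11.1% of the 10834 protein-coding windows with 10 to 38 CpG, the range that holds all members but Xlr3a. The motif TCCCGC with its reverse complement GCGGGA, a core of E2F sites, stood in 15 of the 35 member windows (42.9%), against 25.8% of protein-coding windows and 39.2% of those with 10 to 38 CpG. Both motifs were present in 9 member windows (25.7%), against 2.67% of protein-coding windows and 4.22% of those with 10 to 38 CpG. Each motif contains a CpG, so CpG-rich windows have more chances to hold one, and matches of the 2 can share an end base and were counted separately. The window of Hormad1 had 2 E-boxes, the first at base 194 counted from the 5′ end of the window, and a GCGGGA or TCCCGC match at base 156. Sycp3 likewise had 2 E-boxes, the first at base 187, with a match to the E2F core at base 104. Neither motif was found in the windows of Tex13b, Xlr3a and Dazl. Some windows of the same gene overlap, and with the window richest in CpG per member the E-box stood in 15 of 29 and the E2F core in 13 of 29. A match is a run of letters, not a measured binding site.

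**Figure D2:**
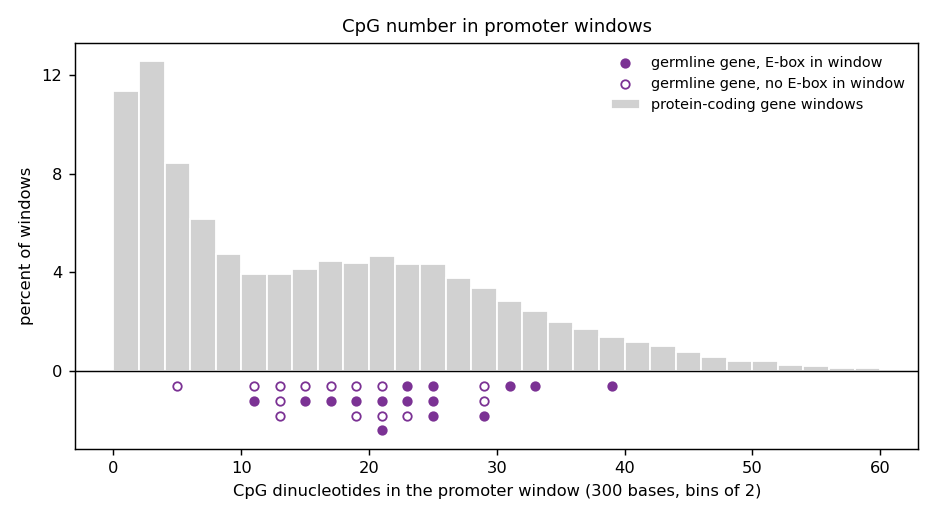
Number of CpG per promoter window (bins of 2) for windows of protein-coding genes, as grey bars in percent of 21262 windows, and below the axis for 29 germline genes, 1 point each. Filled points had the E-box CACGTG in the window; the germline genes lie between 5 and 38 CpG with a median of 20, while the median of the grey bars is 13.

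Most members stayed near 0 in these muscle cells. In the authors' deposited table of Mutant against Control, both group means were under 0.1 TPM for 8 of the 32 members, the higher of the means lay between 0.1 and 1 TPM for 14, between 1 and 5 TPM for 8, and above 5 TPM for 2 (Hsf2bp and Syce2). The Control mean was listed at 0 for 7 members (Hormad1, Syce1, Sycp2, Dazl, Ddx4, Meiob and Slc25a31), and the Mutant mean for 1 (Tdrd6). A mean of 0 over 3 libraries leaves 0 in each, so these 7 would be at 0 in the library labelled Control 3 as well. Not every member was near 0 in Control: 7 had a Control mean of at least 1 TPM. Those means would include the library labelled Control 3. Among the 7, Syce2, Hsf2bp and Zcwpw1 also overlap a coding gene on the opposite strand. Whether these members were silent in unaffected cells was not tested. In bulk RNA, more cells with a transcript and more transcript per cell cannot be told apart.

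Against Control, 3 members were called higher in Mutant (Hormad1, Tex15 and Xlr3a) and 1 lower (Hsf2bp) in the authors' deposited table, of the 32 measured. Over all 22631 genes 9.02% were called higher and 8.11% lower. Members are low genes, and among the 16018 genes with a mean under 20 TPM 6.36% were called higher and 1.89% lower. The 3 members called higher are 3 of 32 and thus near the share among all genes. The 28 other members did not pass the threshold, among them Tdrd9 and Tex13b with an unadjusted p below 0.05, and their values below are levels, not changes.

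By direction alone, 23 of the 32 members (71.9%) had the higher mean in Mutant in the authors' deposited table, against 52.3% of all genes and 56.0% of genes under 20 TPM. The 23 include the 7 members listed at 0 in Control, whose direction was set by having a row at all. Of the members lower in Mutant, Tdrd6 was listed at 0 there. Only 2 members had a mean above 5 TPM, so the band under 20 TPM reaches above most of them. The share is a description and was not tested. The median test estimate of the members was 0.60 in the authors' deposited table, against 0.01 over all genes and 0.09 over genes under 20 TPM. It counts Dazl, Ddx4, Meiob and Slc25a31, which share 1 estimate that says little about direction. On the authors' log2 ratio of mean TPM plus 1, which compresses low genes, the median of the members was 0.07 and that of all genes 0.01.

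**Figure D3:**
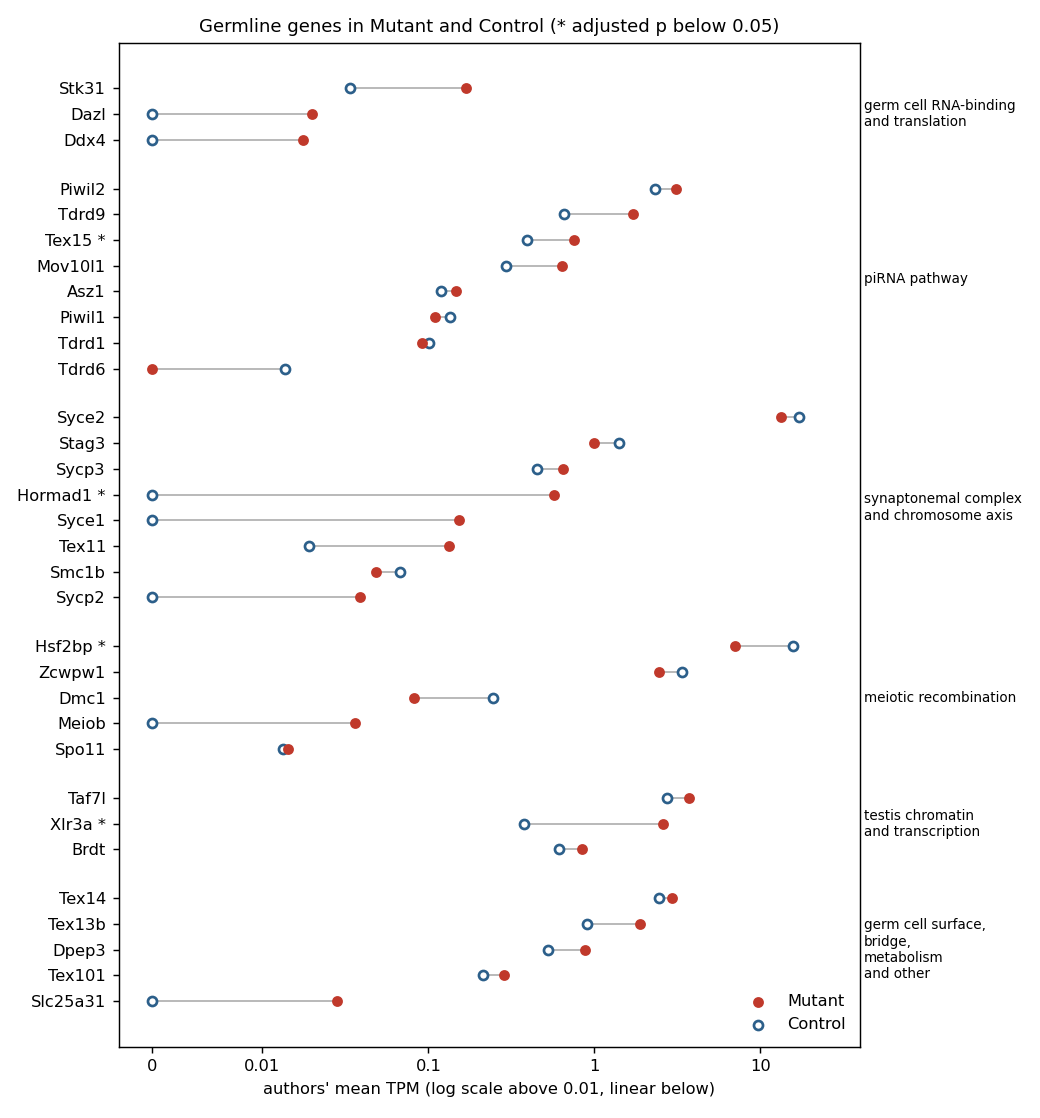
The authors' mean TPM of the 32 germline genes in Mutant (filled) and Control (open), by role, on a log axis that is linear below 0.01. Stars mark the 4 genes with an adjusted p below 0.05; Hormad1 stands at 0.571 TPM in Mutant and is listed at 0 in Control, and 23 of the 32 have the higher mean in Mutant.

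Among the regulators of germ cell RNA, all 3 with a row (of 4) had the higher mean in Mutant and 0 were called. Stk31, a Tudor-domain protein of germ cells, had 0.169 TPM in Mutant and 0.0335 TPM in Control in the authors' deposited table (estimate 2.31, SE 1.57, adjusted p = 0.425). Dazl, which promotes translation of germ cell messages, had 0.0198 TPM in Mutant and was listed at 0 in Control in the authors' deposited table. Ddx4, the germ cell helicase also called Vasa, had 0.0175 TPM in Mutant and was listed at 0 in Control in the authors' deposited table. The defining genes of germ cell identity were thus at or near 0 in both groups. Dazl and Ddx4 share 1 test estimate in the authors' deposited table (estimate 0.95, SE 4.08) with Meiob and Slc25a31, among 894 genes in all, and such rows say little about direction.

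In the piRNA pathway, 1 of the 8 members measured was called higher and 0 lower. Tex15, which in mouse germ cells is needed for piRNA-directed DNA methylation and for meiotic repair, had 0.755 TPM in Mutant and 0.390 TPM in Control in the authors' deposited table (estimate 1.81, SE 0.47, adjusted p = 0.00145). It had the smallest adjusted p of the members. The ratio of its means was 1.93, below the fold the test estimate gives, so both are printed. Tdrd9, a helicase of piRNA bodies, had 1.72 TPM in Mutant and 0.653 TPM in Control in the authors' deposited table (estimate 1.27, SE 0.54, adjusted p = 0.0989). Mov10l1, the helicase that starts piRNA processing, had 0.634 TPM in Mutant and 0.295 TPM in Control in the authors' deposited table (estimate 1.33, SE 0.84, adjusted p = 0.363). Piwil2, a Piwi protein that carries piRNAs, had the highest level of the group, with 3.11 TPM in Mutant and 2.32 TPM in Control in the authors' deposited table (estimate 0.62, SE 0.65, adjusted p = 0.718). The group means of the other 4 lay close together and low. Asz1 had 0.146 TPM in Mutant and 0.119 TPM in Control, Tdrd1 0.0917 TPM in Mutant and 0.101 TPM in Control, and Piwil1 0.109 TPM in Mutant and 0.136 TPM in Control in the authors' deposited table. Tdrd6, a large Tudor-domain protein of spermatids, was listed at 0 in Mutant and had 0.0138 TPM in Control in the authors' deposited table.

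The synaptonemal complex and the chromosome axis, which hold paired chromosomes together in meiosis, gave 1 call of 8 members, Hormad1. Hormad1, an axis protein that monitors pairing, had 0.571 TPM in Mutant and was listed at 0 in Control in the authors' deposited table (estimate 4.69, SE 1.62, adjusted p = 0.0256). No fold is given against a mean of 0. It is the one member that was at 0 in Control and passed the threshold. In its longest annotated transcript 11.8% of the 100-base words also occur in the transcript of Gm15529, so a part of its reads could be shared. Syce1, a central element protein, showed 0.153 TPM in Mutant and was listed at 0 in Control in the authors' deposited table (estimate 2.87, SE 2.63, adjusted p = 0.639). Sycp2, a lateral element protein, showed 0.0387 TPM in Mutant and was listed at 0 in Control in the authors' deposited table. Tex11, an X-linked protein of meiotic crossover sites, had 0.133 TPM in Mutant and 0.0191 TPM in Control in the authors' deposited table (estimate 2.98, SE 1.84, adjusted p = 0.347). Sycp3, the lateral element partner of Sycp2, differed little, with 0.648 TPM in Mutant and 0.448 TPM in Control in the authors' deposited table (estimate 0.47, SE 1.05, adjusted p = 0.926).

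The other axis members were lower in Mutant by their means, and none passed. Syce2, a central element protein and the most abundant of the group, had 13.3 TPM in Mutant and 17.0 TPM in Control in the authors' deposited table (estimate -0.31, SE 0.26, adjusted p = 0.588). Stag3, a meiotic cohesin subunit, had 0.992 TPM in Mutant and 1.40 TPM in Control, and Smc1b, another, 0.0482 TPM in Mutant and 0.0670 TPM in Control in the authors' deposited table. Syce2 overlaps Gcdh on the opposite strand, a gene at a similar level, with 14.8 TPM in Mutant and 12.6 TPM in Control in the authors' deposited table. The strand setting of the counting was not stated in the sources used here, so how much of the Syce2 level is Gcdh reads was not tested.

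Of the 5 members of meiotic recombination, 1 was called, and it was lower. Hsf2bp, which binds Brca2 in meiotic repair, had 7.02 TPM in Mutant and 15.8 TPM in Control in the authors' deposited table (estimate -0.75, SE 0.24, adjusted p = 0.0147). It overlaps Rrp1b, a ribosome biogenesis gene on the opposite strand, which was also lower, with 61.2 TPM in Mutant and 77.8 TPM in Control in the authors' deposited table (estimate -0.47, SE 0.08, adjusted p = 2.64e-08). The library kit kept strand, but with the counting unstated the part of Rrp1b reads in the Hsf2bp value was not tested. Zcwpw1, a reader of the histone marks at recombination sites, had 2.46 TPM in Mutant and 3.36 TPM in Control in the authors' deposited table (estimate -0.47, SE 0.31, adjusted p = 0.390). Dmc1, the meiotic recombinase, had 0.0815 TPM in Mutant and 0.245 TPM in Control, and Spo11, which makes the DNA breaks, 0.0142 TPM in Mutant and 0.0133 TPM in Control in the authors' deposited table. Meiob, a single-strand binding protein of meiosis, had 0.0361 TPM in Mutant and was listed at 0 in Control in the authors' deposited table. These 3 genes were near 0 in both groups.

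The 3 members of testis chromatin and transcription all had the higher mean in Mutant, and 1 was called. Xlr3a, an X-linked gene of the Xlr family related to Sycp3, had 2.59 TPM in Mutant and 0.376 TPM in Control in the authors' deposited table (estimate 1.81, SE 0.62, adjusted p = 0.0229). The ratio of its means, 6.89, is the highest of the members that were called and not at 0 in Control. In log2 that ratio is 2.78, above the test estimate of 1.81. By the test estimate Xlr3a and Tex15 were alike. Taf7l, an X-linked testis form of a general transcription factor subunit, had 3.70 TPM in Mutant and 2.73 TPM in Control in the authors' deposited table (estimate 0.25, SE 0.37, adjusted p = 0.860). Brdt, the bromodomain protein of the testis, had 0.842 TPM in Mutant and 0.609 TPM in Control in the authors' deposited table (estimate 0.57, SE 0.50, adjusted p = 0.601).

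The 5 remaining members all had the higher mean in Mutant, and 0 were called. Tex13b, an X-linked testis gene, had 1.88 TPM in Mutant and 0.897 TPM in Control in the authors' deposited table (estimate 1.09, SE 0.51, adjusted p = 0.145). Dpep3, a dipeptidase of the germ cell surface, had 0.876 TPM in Mutant and 0.528 TPM in Control in the authors' deposited table (estimate 0.71, SE 0.84, adjusted p = 0.777). Tex14, which keeps the bridges between germ cells open, had 2.92 TPM in Mutant and 2.43 TPM in Control, and Tex101, a germ cell surface protein, 0.284 TPM in Mutant and 0.213 TPM in Control in the authors' deposited table. Slc25a31, the germ cell carrier of ADP and ATP in mitochondria, had 0.0282 TPM in Mutant and was listed at 0 in Control in the authors' deposited table.

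Genes of the same kind outside the 35 were counted from lists chosen by role. Beside these counts stand the 9.02% of all genes called higher and 8.11% called lower, and differences from them were not tested. Of 21 further meiosis genes measured 0 were higher and 1 lower, Trip13, a remodeller of Hormad1 that also serves mitosis, with 37.1 TPM in Mutant and 51.5 TPM in Control in the authors' deposited table (estimate -0.58, SE 0.10, adjusted p = 7.13e-08). Of 16 further piRNA genes 3 were higher and 0 lower. Piwil4, the Piwi protein that directs DNA methylation in fetal germ cells, had 1.75 TPM in Mutant and 0.578 TPM in Control in the authors' deposited table (estimate 1.49, SE 0.49, adjusted p = 0.0176). The other 2 were Tdrd7 (13.0 TPM in Mutant and 8.36 TPM in Control in the authors' deposited table) and Mybl1, a transcription factor of piRNA clusters (21.1 TPM in Mutant and 15.5 TPM in Control in the authors' deposited table). Of 20 other germ cell genes under methylation 0 were called. Among them was Rhox5, with 2.23 TPM in Mutant and 0.290 TPM in Control in the authors' deposited table (estimate 2.79, SE 1.09, adjusted p = 0.0600).

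The Xlr family pointed one way. Leaving out the members Xlr3a and Sycp3, all 8 relatives measured had the higher mean in Mutant, against 56.0% of genes under 20 TPM. The difference was not tested. Xlr5b (0.0374 TPM in Mutant) and Xlr5c (0.161 TPM in Mutant) were listed at 0 in Control, so having a row at all set their direction. Of the 8 relatives 1 was called. That was Xlr4a, with 3.95 TPM in Mutant and 0.851 TPM in Control in the authors' deposited table (estimate 2.66, SE 0.73, adjusted p = 0.00267). Xlr3b had 3.69 TPM in Mutant and 1.73 TPM in Control in the authors' deposited table (estimate 0.95, SE 0.40, adjusted p = 0.0871). Xlr, the founding gene of the family, had 4.10 TPM in Mutant and 1.59 TPM in Control in the authors' deposited table (estimate 0.91, SE 0.43, adjusted p = 0.156). Xlr3c had 6.71 TPM in Mutant and 2.51 TPM in Control, yet its SE in the authors' deposited table was 2.50. The deposited p of Xlr3c does not follow from its estimate (1.40) and SE, so its lack of a call is not read as a result. Xlr4b and Xlr4c had SEs of 2.04 and 1.78 in the authors' deposited table. Among the 3387 genes with a mean of 1 to 5 TPM the median SE was 0.44 and the 90th percentile 1.39, so these 3 Xlr genes had larger SEs than most genes of that level. The part of the library labelled Control 3 in those SEs was not tested. The copies are similar in sequence: 24.5% of the 100-base words of the longest Xlr3a transcript occur in other genes, first of all Xlr3b and Xlr3c, and 45.5% of those of Xlr4a. How reads were split between such copies was not stated in the sources used here, so the level of a single Xlr gene is uncertain. Apart from Hormad1, Xlr3a and Sycp1, 0% of the words of each member were found in another gene.

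**Figure D4:**
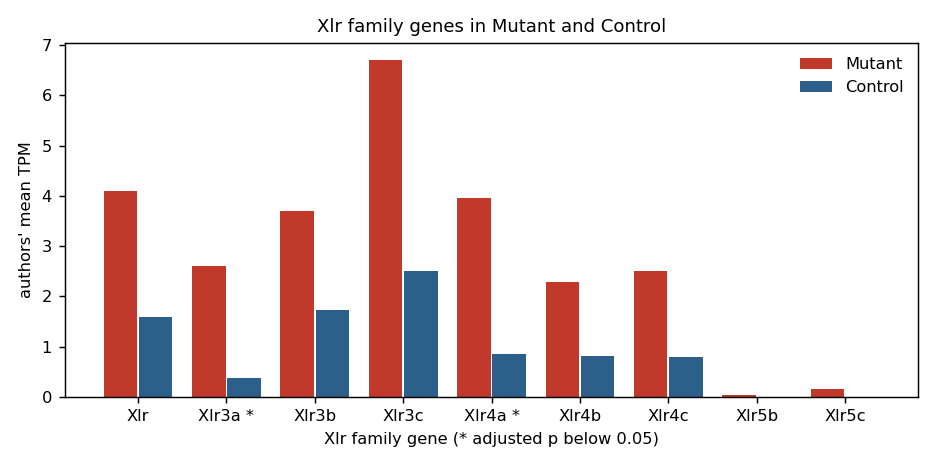
The authors' mean TPM of Xlr family genes in Mutant (left bar of each pair) and Control (right bar), from 0. Every Xlr gene measured has the higher mean in Mutant, with Xlr5b and Xlr5c listed at 0 in Control. Stars mark Xlr3a (2.59 TPM in Mutant, 0.376 TPM in Control) and Xlr4a (3.95 TPM in Mutant, 0.851 TPM in Control), the 2 with an adjusted p below 0.05.

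The repressor complex PRC1.6, known to act on germline promoters, was also counted. Of its 12 genes (PRC1.6 and E2F6) 0 were higher and 5 lower in Mutant in the authors' deposited table, each by a small amount. Most are abundant genes: of the 10 with a mean of at least 20 TPM 4 were lower, and among all 6613 genes of that level 15.5% were called higher and 23.2% lower. L3mbtl2, a core subunit, had 21.9 TPM in Mutant and 27.3 TPM in Control in the authors' deposited table (estimate -0.33, SE 0.09, adjusted p = 0.00170). Pcgf6, the subunit that defines the complex, had 12.3 TPM in Mutant and 15.8 TPM in Control in the authors' deposited table (estimate -0.37, SE 0.14, adjusted p = 0.0490). Tfdp1, Cbx3 and Wdr5 were the others, with test estimates of -0.28, -0.33 and -0.24 in the authors' deposited table. E2f6, Mga and Max did not pass, with test estimates of -0.14, -0.04 and -0.11 in the authors' deposited table.

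Relatives of the members that serve body cells are mostly abundant: 11 of the 16 measured had a mean of at least 20 TPM. Of the 16, 0 were higher and 6 lower in Mutant, all 6 among those 11, and 23.2% of all genes of that level were called lower. The 6 included Smc1a, the relative of Smc1b (55.7 TPM in Mutant and 67.3 TPM in Control in the authors' deposited table) and Brd3, a relative of Brdt (45.1 TPM in Mutant and 61.0 TPM in Control in the authors' deposited table). The other 4 were Slc25a4 and Slc25a5, relatives of Slc25a31, Stag1, a relative of Stag3, and Ddx3x, a relative of Ddx4. Markers of other cells also differed between Mutant and Control. Of 5 macrophage and leukocyte genes measured (of 8) 2 were higher in Mutant, Cd68 and Laptm5. The 5 summed to 111 TPM in Mutant and 32.3 TPM in Control in the authors' deposited table. Most of that sum was Laptm5, with 84.8 TPM in Mutant and 25.1 TPM in Control. The defining marker Ptprc had 0.303 TPM in Mutant and 0.381 TPM in Control, and Csf1r 0.430 TPM in Mutant and 0.156 TPM in Control. Of the 5 endothelial genes 1 was higher (Tek) and 2 lower (Pecam1 and Cdh5), of the 5 fibroblast genes 0 were called, and of the 8 muscle genes 3 were higher and 3 lower. The part of these cells in the member values was not tested.

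The second deposited table compares PT with PUT. What the arms stand for is not in the labels, so they were put in no group, and whether the 2 tables share libraries is not known. Positive values are taken as higher in PT, from the name of the table, and Uhrf1 had a log2 fold change of -4.00 (SE 0.27) in the authors' deposited table. Of the 20 members with a row, 10 were called higher in PT and 0 lower. Among all 27775 genes of the authors' deposited table, called higher were 25.1% and called lower 22.1%, and among the 15605 with a mean normalised count under 100 it was 22.3% and 6.42%. By sign 15 members were positive and 5 negative, with a median log2 fold change of 1.75 in the authors' deposited table, against 0.14 over all genes and 0.52 over genes under 100 counts. Members without a row are not counted here, and a member near 0 in PUT could have its row through PT alone. The counts and the median therefore describe the listed members only. The mean normalised counts of the members ran from 1.35 (Smc1b) to 61.2 (Syce2). Among those called higher the lowest were Hormad1 (2.27), Dpep3 (3.95), Mov10l1 (5.17) and Tex13b (6.13). Values of each arm were not used here, so whether an arm was at 0 was not examined. The large fold changes of low genes are fitted values and no bounds.

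The same table had shifts unrelated to germ cells. Its 35 mitochondrially encoded genes had a median log2 fold change of 2.68, and the ribosomal RNAs mt-Rnr1 and mt-Rnr2 had 7.37 and 6.95 in the authors' deposited table. Of 4 macrophage genes there 2 were higher (Fcer1g and Laptm5) and 1 lower (Csf1r), of 5 endothelial genes 2 were higher and 0 lower, and of 3 fibroblast genes 2 were higher and 0 lower. The part of these shifts in the member values was not tested.

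The members called higher came from most roles. In the piRNA pathway 3 of 5 were called: Mov10l1 with a log2 fold change of 3.88 (SE 1.27, adjusted p = 0.00587), Tex15 with 2.74 (SE 0.58, adjusted p = 9.40e-06) and Piwil2 with 0.99 (SE 0.27, adjusted p = 0.000820) by the authors' deposited table. Tdrd1 with 3.15 (SE 1.78, adjusted p = 0.137) and Tdrd9 with 0.87 (SE 0.52, adjusted p = 0.162) did not pass by the authors' deposited table. Of the 6 axis genes 2 were called, Hormad1 with 4.66 (SE 1.70, adjusted p = 0.0151) and Sycp3 with 2.36 (SE 0.49, adjusted p = 5.78e-06) by the authors' deposited table. Sycp3 overlaps Chpt1 on the opposite strand, which had a log2 fold change of 1.82 (SE 0.17) by the authors' deposited table.

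All 3 genes of testis chromatin and transcription were called higher in PT. Xlr3a had a log2 fold change of 1.99 (SE 0.37, adjusted p = 3.58e-07), Brdt 1.94 (SE 0.64, adjusted p = 0.00693) and Taf7l 1.57 (SE 0.59, adjusted p = 0.0192) by the authors' deposited table. Of the 3 surface and bridge genes 2 were called: Tex13b with 6.10 (SE 1.38, adjusted p = 3.70e-05), the highest of the members, and Dpep3 with 5.46 (SE 1.47, adjusted p = 0.000676) by the authors' deposited table. Tex14 with 1.26 (SE 0.92, adjusted p = 0.269) did not pass by the authors' deposited table. Of the 4 members on the X chromosome, Taf7l, Tex13b and Xlr3a were called higher, and Tex11 had 0.40 (SE 1.67, adjusted p = 0.876) by the authors' deposited table. Among all genes 25.1% were called higher for PT over PUT, and the share among X-linked genes was not computed.

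Of the 5 members with negative values, 0 were called. Hsf2bp, lower in Mutant above, had -0.52 (SE 0.26, adjusted p = 0.0923), Zcwpw1 -0.96 (SE 0.47, adjusted p = 0.0792) and Syce2 -0.51 (SE 0.27, adjusted p = 0.117) by the authors' deposited table. The cohesin subunits Stag3 and Smc1b had -0.45 (SE 0.50) and -0.67 (SE 1.69) by the authors' deposited table. Stk31, the one germ cell RNA regulator in this table, had 3.93 (SE 1.90, adjusted p = 0.0762) by the authors' deposited table.

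Set side by side, Hormad1, Tex15 and Xlr3a were called higher in both tables: Hormad1 with 4.69 (SE 1.62) for Mutant over Control and 4.66 (SE 1.70) for PT over PUT, Tex15 with 1.81 (SE 0.47) and 2.74 (SE 0.58), and Xlr3a with 1.81 (SE 0.62) and 1.99 (SE 0.37) in the authors' deposited tables. The mean normalised count for PT over PUT was 2.27 for Hormad1, 17.2 for Tex15 and 40.9 for Xlr3a, so the Hormad1 value there rests on few reads. The 7 others called for PT over PUT did not pass for Mutant over Control, and the difference between the tables was not tested. Sycp3 had 0.47 (SE 1.05) for Mutant over Control and 2.36 (SE 0.49) for PT over PUT in the authors' deposited tables. In the windows, the 8 members called for PT over PUT with a promoter window had a median of 16 CpG and the 21 other members 21. The E-box stood in 5 of the 8 and in 10 of the 21, and the E2F core in 2 of the 8 and in 11 of the 21. Many of the 21, Dazl and Ddx4 among them, had no row for PT over PUT. The 21 are therefore not a group that was measured there and did not pass.

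**Figure D5:**
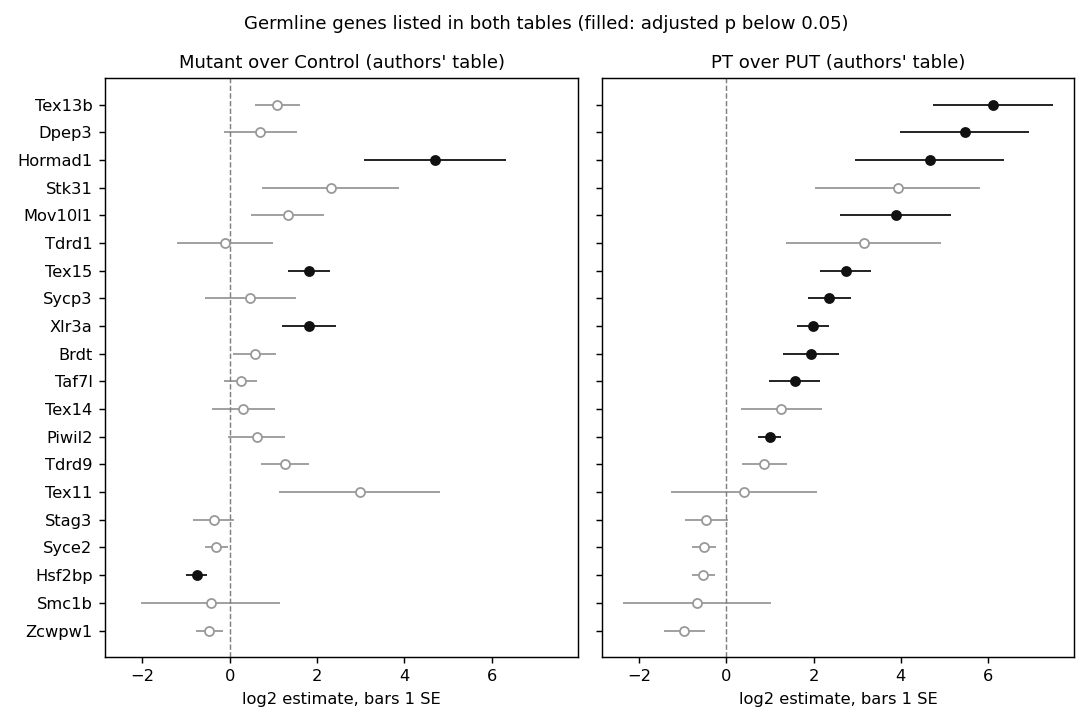
Log2 estimates of the 20 germline genes with a row in both of the authors' tables, Mutant over Control at the left and PT over PUT at the right, with bars of 1 SE. Filled points had an adjusted p below 0.05: 4 genes at the left (Hormad1, Tex15 and Xlr3a above 0, Hsf2bp below) and 10 at the right, all above 0.

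Germline genes outside the 35 were called for PT over PUT as well. Of 15 further piRNA genes 6 were higher and 0 lower, which were Fkbp6 with 6.19 (SE 1.38), Tdrd12 with 4.32 (SE 1.80), Tex19.2 with 4.01 (SE 0.69), Tex19.1 with 2.73 (SE 0.54), Piwil4 with 1.24 (SE 0.52) and Mybl1 with 0.86 (SE 0.13) by the authors' deposited table. Of 10 other germ cell genes under methylation 7 were higher and 0 lower, led by 4930550L24Rik with 7.34 (SE 1.30), Rhox5 with 5.59 (SE 1.46) and Sohlh2, an early germ cell transcription factor, with 5.15 (SE 0.69), and including Tuba3a with 5.13 (SE 1.36), Tuba3b with 4.80 (SE 1.40) and Naa11 with 3.91 (SE 1.58) by the authors' deposited table. All 6 Xlr relatives in this table, other than Xlr3a and Sycp3, were higher, from 1.98 (Xlr3b, SE 0.35) to 5.70 (Xlr4b, SE 1.12) by the authors' deposited table. Of 13 meiosis genes outside the members 1 was higher (Rec114, 1.96, SE 0.49) and 2 lower (Trip13, -0.85, SE 0.11, and Psmc3ip, -0.52, SE 0.18) by the authors' deposited table, against the 25.1% and 22.1% of all genes, and a difference between the lists was not tested. The 12 PRC1.6 and E2F6 genes all had at least 100 mean normalised counts, a level at which 28.8% of genes were called higher and 42.1% lower. Of the 12, 4 were higher and 5 lower, with L3mbtl2 at -1.24 (SE 0.09), Ring1 at -0.65 (SE 0.18) and Pcgf6 at -0.63 (SE 0.15) among the lower, and Yaf2 at 1.24 (SE 0.15), Rnf2 at 1.02 (SE 0.11) and Mga at 0.53 (SE 0.07) among the higher, by the authors' deposited table. Of 15 paralogs 4 were higher and 4 lower, with Rpl10, the relative of Rpl10l, at 1.03 (SE 0.06) and Smc1a at -0.86 (SE 0.07) by the authors' deposited table.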

How the data were processed

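RNA of cultured satellite cells was sequenced from ribosomal-RNA-depleted, stranded libraries as paired reads of 150 bp, per the labels' protocols. Per the submitters' processing notes the tools were STAR 2.7.6a (HISAT2 2.2.1 for Cre Control), Trim Galore 0.6.6, DESeq2 and featureCounts 2.0.1 on GRCm38, listed without roles. The authors deposited mean TPM per group, a log2 ratio of mean TPM plus 1 and its table's standard error, the test statistic (a score), p-values and adjusted p-values for 22631 genes. Per the file headers the PT against PUT table gives log2 fold changes, scores, p-values and a mean signal, the authors' mean normalised count. Repeats came as deposited counts per library.

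From these, the test estimate was computed as statistic times standard error, because the deposited standard error belongs to it and not to the ratio. Calls use the authors' adjusted p below 0.05. No gene test was run, since no gene values were assigned to labelled libraries, and 95% Wilson intervals were taken with SciPy 1.17.1 in Python 3.11.15. Positions and transcripts are from GENCODE M21 and promoter windows from RefSeq GRCm38.p6. Motifs and CpG were counted in the windows as given. Words of 100 bases of the longest transcript of each member were looked up in all transcripts of other genes.

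The members and lists were chosen with earlier results of these data known. All members are named, and of the other lists genes past the threshold in either table, or the 6 with the largest test estimate where more passed. Any other gene was named after its values were seen. A gene of the paralog list is not reported here and was left out of its counts. Alternatives were other thresholds, Benjamini-Hochberg adjustment over other gene sets, and other pseudocounts. The scripts were tested on simulated data.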

Additional observations from a re-analysis of the deposited data

How the results depend on the processing

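Members called for Mutant against Control numbered 4 with the authors' adjusted p, 5 at a threshold of 0.1, 1 (Tex15) at 0.01, and 4 with Benjamini-Hochberg adjustment over all genes or over genes of at least 0.1 TPM. For PT against PUT 10 were called, all higher, 13 at 0.1 (11 higher, and Hsf2bp and Zcwpw1 lower), 8 at 0.01, 10 with adjustment over all genes and 6 over genes with at least 10 mean normalised counts, a filter that leaves 11 of the 20 members. The median log2 ratio of the members, 0.07 with a pseudocount of 1, was 0.38 with 0.1, 0.49 with 0.01, 0.19 over the 21 members of at least 0.1 TPM, and 0.60 as the test estimate. Of those 21 members 15 had the higher mean in Mutant, against 23 of all 32, and 22 of 32 did by the sign of the test estimate. No count of all genes called moved by over 1.5 times, but for PT against PUT the balance turned, with 5805 higher and 6179 lower under the filter on mean normalised counts against 6984 higher and 6128 lower without it. No paired analysis was possible because the gene tables carry no values per library. For the same reason no library was left out of a gene comparison. Low levels also limit what the tables can show: the median SE of genes with both means under 0.1 TPM was 3.71.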
